A study of Mus musculus with 6 samples.

Results

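The elastic fibre and microfibril genes of NIH3T3 fibroblasts were examined across all libraries, starting from 10 symbols, namely Eln, Fbn1, Fbn2, Mfap5, Fbln5, Efemp1, Efemp2, Fbln1, Fbln2 and Emilin1. Members were found by matching each symbol to its Ensembl gene ID in the mouse GENCODE annotation, which gave 9 of the 24938 genes listed. Fbln1, which encodes fibulin-1, was not analysed here. NIH3T3 is an established mouse embryonic fibroblast line. RNA sequencing was done on 3 control libraries from wild type NIH3T3 cells and 3 libraries from NIH3T3 cells overexpressing F-CircAE, a fusion circular RNA related to AML1-ETO, the RUNX1-RUNX1T1 fusion of human acute myeloid leukaemia. The controls carry the genotype label wild type, and neither an empty vector, an agent nor a time is stated for any library; effects of introducing the construct and of the circular RNA therefore cannot be told apart. Separate cultures are not stated for the replicates either, so each p-value reflects the spread among libraries only, and that spread may be technical.

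Elastic fibres give skin, vessels and lung their recoil. They consist of a core of crosslinked elastin on a scaffold of microfibrils, whose backbone is made of the large glycoproteins fibrillin-1 and fibrillin-2. Fibulins are calcium-binding matrix glycoproteins with repeated EGF-like modules, of which fibulin-4 and fibulin-5 help to bring tropoelastin to microfibrils and to lysyl oxidases, the enzymes that crosslink it. Fibroblasts are a main source of these proteins, and microfibrils also hold latent TGF-beta in the matrix through latent TGF-beta binding proteins.

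The promoters of 3 fibulin genes are shown because Fbln2 was the member whose groups did not overlap, Fbln5 had the highest estimate with overexpression, and Efemp1 was the most abundant member. Each line gives the 250 bases before a RefSeq transcript start (build GRCm38.p6), 5′ to 3′ on the strand of the gene, with matches to the searched motifs in capitals.
Fbln2, chr6:91212514-91212763 (+ strand): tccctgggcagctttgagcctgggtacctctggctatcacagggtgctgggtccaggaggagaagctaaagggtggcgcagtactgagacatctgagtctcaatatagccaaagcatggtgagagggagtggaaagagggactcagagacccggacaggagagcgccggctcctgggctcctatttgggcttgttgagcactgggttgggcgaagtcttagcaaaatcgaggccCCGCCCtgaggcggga
Fbln5, chr12:101819120-101819369 (- strand): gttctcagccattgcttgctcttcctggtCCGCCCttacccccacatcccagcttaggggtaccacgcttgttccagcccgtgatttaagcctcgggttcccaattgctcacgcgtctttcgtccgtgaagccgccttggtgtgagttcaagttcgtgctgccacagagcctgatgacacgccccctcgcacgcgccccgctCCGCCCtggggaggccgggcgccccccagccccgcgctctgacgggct
Efemp1, chr11:28852955-28853204 (+ strand): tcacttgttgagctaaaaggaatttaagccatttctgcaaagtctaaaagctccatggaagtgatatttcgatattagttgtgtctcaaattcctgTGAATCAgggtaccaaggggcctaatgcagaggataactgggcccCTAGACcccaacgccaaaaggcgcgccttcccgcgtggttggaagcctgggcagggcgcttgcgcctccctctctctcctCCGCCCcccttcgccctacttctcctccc
The motifs, searched on both strands, were the RUNX core TGTGGT, the AP-1 motif TGANTCA, the Sp1 motif GGGCGG, the TATA box TATAAA, the E-box CACGTG and the SMAD element GTCTAG, and the first 2 are of interest because AML1-ETO carries the RUNX1 DNA-binding domain and because AP-1 sites occur in many matrix genes. With positions counted from the transcript start to the first letter of a match, the capitals mark Sp1 letters at -16 in Fbln2 and at -221 and -48 in Fbln5. A second RefSeq start of Fbln5 has a window, chr12:101818485-101818734, with 0 matches, which is not printed. In Efemp1 they mark AP-1 letters at -154, the SMAD element at -109 and Sp1 letters at -29. RefSeq windows were matched for 6 of the 9 listed members, with 9 windows in all, of which a pair at Efemp2 overlap each other. The Sp1 letters were in 7 of the 9 windows and in 32.7% of all 32851 windows of the same length, and Emilin1 alone of these members had none. The RUNX core was in 0 of the 9 windows and in 14% of all windows, AP-1 letters were in 1 of 9 and in 6.75%, and the SMAD element was in 2 of 9 and in 7.11%. The TATA box and the E-box were in 0 of the 9 windows and in 12.4% and 6.02% of all windows. The windows of Fbln2, Fbn1 and Emilin1, the unprinted Fbln5 window and the overlapping pair at Efemp2 lie inside the GENCODE gene span. They are thus downstream of the first annotated start of those genes. All of these are matches of letters in a window, not binding sites. The overexpressed molecule is a circular RNA, and whether AML1-ETO protein is present in these cells was not tested.

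Recovered reads, which were worked back from the steps in the deposited values, numbered 16772471 to 21526121 per library. Control replicates 1 and 2 were far closer to each other than any other pair, with a chi-square per gene of 1.46 (counting error alone gives 1) against 5.15 to 25.1 in the other 14 pairs. They still differed beyond counting error and were entered separately, but if they share a culture the control SDs and standard errors are too small. Of 11 fibroblast markers, 10 were above 1 FPKM in every library, with Col1a1 at 444 to 607 FPKM and Vim at 560 to 665 FPKM, and Thy1 ranged from 0.873 to 3.61 FPKM. Col3a1, at 48.8 to 148 FPKM, and Pdgfrb, at 6.91 to 17.8 FPKM, also varied widely between libraries. Summed fibroblast markers stood at 1689 to 2000 FPKM in control and 1568 to 1880 FPKM with overexpression. Of 4 endothelial markers analysed 0 reached 1 FPKM, with Cdh5 at up to 0.933 FPKM. Among immune and epithelial markers only Cd68 and Cdh1 did. Krt8 reached 0.986 FPKM and Adgre1 0.166 FPKM, with Ptprc, Itgam and Krt18 at or below 0.0698 FPKM. Of 4 chondrocyte markers only Sox9 was above 1 FPKM, at 27.6 to 34 FPKM, while Acan, Col2a1 and Matn1 stayed at or below 0.157 FPKM. Of 6 smooth muscle markers, which are of interest because that cell type makes much elastin, 3 were above 1 FPKM throughout (Acta2, Des and Smtn) while Myh11 stayed at or below 0.0979 FPKM. Their sum was 38.4 to 39.9 FPKM in control and 32.3 to 38.9 FPKM with overexpression, and the part of such shifts in the results below was not tested.

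FPKM, fragments scaled to gene length and to library size, allows levels to be compared between genes. Efemp1, which encodes fibulin-3, was the most abundant member by far, with a mean of 488 FPKM over the 6 libraries and a place between 81 and 121 among the 24938 genes. Fbln2 followed at 61.3 FPKM and Efemp2, which encodes fibulin-4, at 31.5 FPKM. Then came Fbn1 at 17.4, Emilin1 at 15.6, Fbln5 at 8.63, Mfap5 at 8.23 and Eln at 2.38 FPKM, and Fbn2 was last with at most 0.0338 FPKM in any library. The order held in every library down to Emilin1, although Fbn1 exceeded Emilin1 by only 1.02-fold to 1.45-fold and the ranges of both genes overlapped. Fbln5 and Mfap5 could not be ordered, since Fbln5 was the higher in 3 of 6 libraries. Efemp1 supplied 75.1% to 78.0% of the summed FPKM of the 9 members, and Fbln2 a further 9.0% to 11%. Even against Fbln2, the next in order, Efemp1 stood 6.80 to 8.57 times higher in FPKM.

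**Figure D1:**
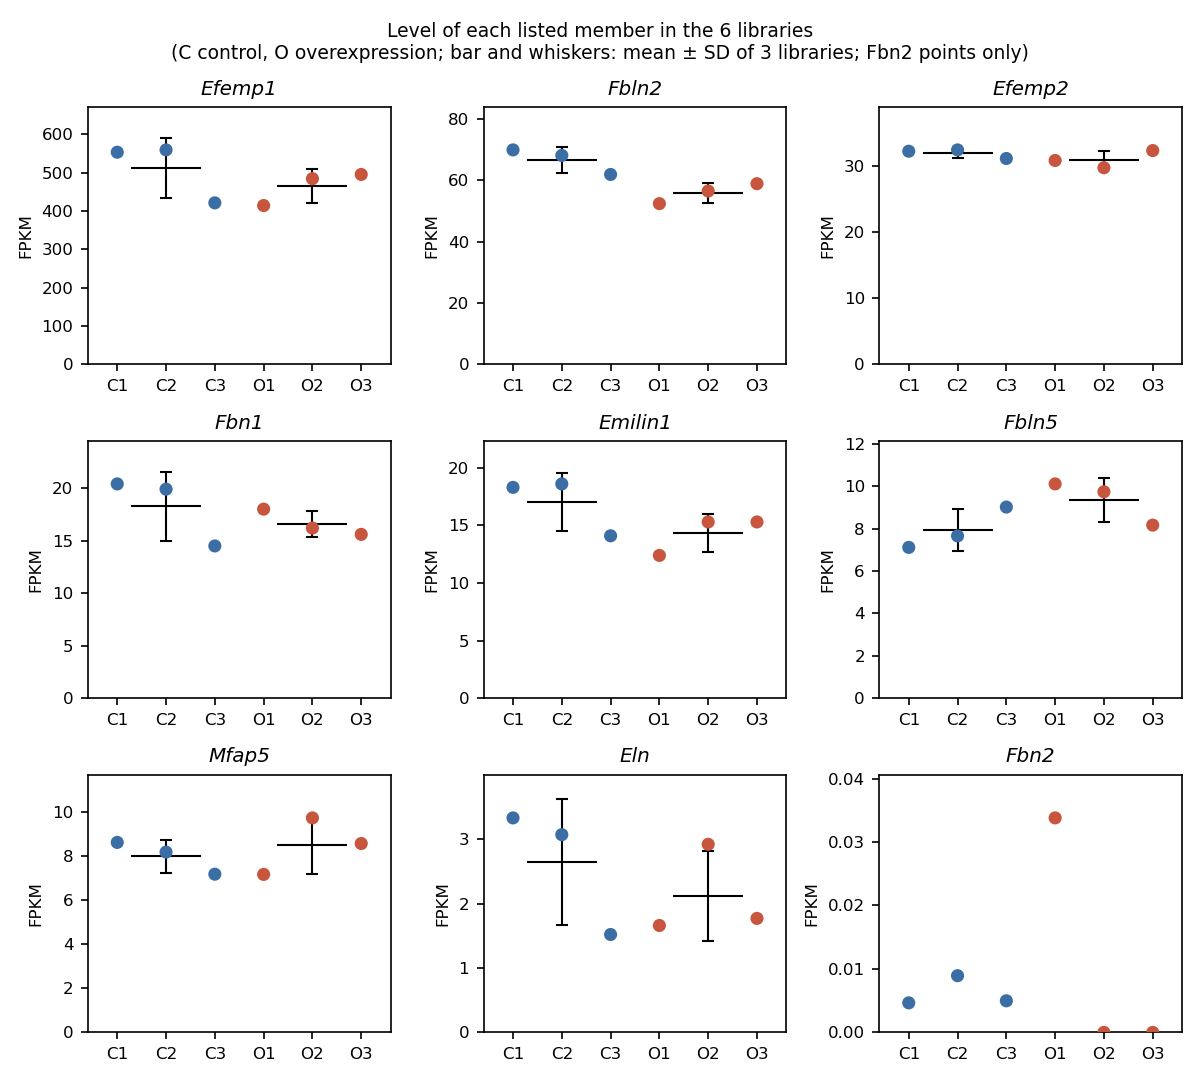
Level of each of the 9 listed members in FPKM (vertical axis, starting at 0) in control libraries C1 to C3 (blue) and overexpression libraries O1 to O3 (red), with the mean and SD of each group of 3 as a bar and whiskers except for Fbn2. Only in Fbln2 do all 3 overexpression libraries lie below all 3 controls; control replicate 3 of Eln, at 1.52 FPKM, lies below all 3 overexpression libraries.

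None of the members passed the test between overexpression and control. Of the 10 symbols, 8 had values above 1 FPKM in at least 3 libraries and were tested, and 0 of 8 were called at a limma adjusted p below 0.05, where 0 of 12222 genes (0%) were called. At an unadjusted p below 0.05 there was 1 member of 8, Fbln2, against 5.17% of all genes tested. Limma-voom on the recovered reads also called 0 of the 8 members and 0 of 14450 genes, with 1 member and 5.29% of genes at an unadjusted p below 0.05. The estimates were below 0, that is lower with overexpression, in 6 of 8 members and in 46.8% of all genes tested. Their median log2 fold change was -0.12, beside 0.01 over all genes tested. Single libraries moved this median, to -0.27 without control replicate 3, to -0.05 or -0.06 without control replicate 1 or 2, and to -0.08 without overexpression replicate 1. The groups did not overlap in 1 of 8 members, with all overexpression libraries below all controls, and in 11.5% of all genes tested (4.69% in that direction). Without control replicate 3, 0 of 8 members and 0.0166% of genes were called, and 6 of 8 members had an unadjusted p below 0.05, as did 15.4% of all genes tested in that fit. Without control replicate 1 or 2, or with that pair averaged, 0 of 8 members had one. In those fits 248 and 261 of 12031 genes and 234 of 12023 genes had one. The fit without control replicate 3 kept only control replicates 1 and 2, the near-identical pair, as controls. Its p-values, here and below, may therefore be too small. In bulk RNA, fewer cells with a transcript and less of it per cell cannot be told apart.

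Eln encodes tropoelastin, the soluble precursor of the elastic core (chromosome 5, 134702593 to 134747323, mm10, minus strand, ENSMUSG00000029675). In order of replicate number, the controls stood at 3.33, 3.07 and 1.52 FPKM and the overexpression libraries at 1.66, 2.92 and 1.77 FPKM; later values of single libraries are given in the same order. Both groups therefore contained high and low libraries and overlapped, with control replicate 3 the lowest of all and overexpression replicate 2 next to control replicates 1 and 2. These values rest on 235 to 551 reads in control and 227 to 508 with overexpression. The exact 95% Poisson interval of control replicate 3 was 1.33 to 1.72 FPKM and that of control replicate 1 was 3.05 to 3.61 FPKM, so counting error does not cover the gap between them; such intervals cover counting error only. The group means were 2.64 ± 0.98 and 2.11 ± 0.70 FPKM (SD, n = 3). The log2 fold change of -0.21 on the log2(FPKM + 1) scale had a standard error of 0.24 and the widest 95% interval of the members, -0.78 to 0.37 (limma adjusted p = 0.879). Without control replicate 3 it was -0.45 (limma adjusted p = 0.316), and without control replicate 1 or 2 it was -0.06 or -0.11. Of the Eln exon sequence 3.3% overlaps Gm30003 on the opposite strand, and the strand setting of the counting is not given in the sources used here.

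Fbn1 encodes fibrillin-1, the main microfibril backbone protein of adult tissue and the gene mutated in Marfan syndrome (chromosome 2, 125300594 to 125507993, minus strand, ENSMUSG00000027204). Its controls stood at 20.4, 19.9 and 14.5 FPKM, against 18, 16.2 and 15.6 FPKM under overexpression. Control replicate 3 was the lowest library, and all 3 overexpression libraries lay between it and the other controls. Means of 18.3 ± 3.26 and 16.6 ± 1.24 FPKM (SD, n = 3) gave a log2 fold change of -0.12 with a 95% interval of -0.43 to 0.19 (limma adjusted p = 0.875). Leaving out control replicate 3 gave -0.27 (limma adjusted p = 0.251), whereas dropping control replicate 1 or 2 gave -0.04 or -0.05. Gm9913 on the opposite strand shares 20.1% of the Fbn1 exon sequence and was listed at 0.0383 to 0.150 FPKM, with 2 to 9 reads. How reads in shared sequence were counted is not given, so the effect of this overlap on the Fbn1 level was not tested. The ratio of Fbn1 to Eln FPKM ran from 5.55 to 10.9, with 6.13, 6.48 and 9.58 in the controls and 10.9, 5.55 and 8.81 with overexpression, with high and low ratios in both groups.

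Fbn2 encodes fibrillin-2, a fibrillin prominent in development (chromosome 18, 58008623 to 58210487, minus strand, ENSMUSG00000024598). It had 1, 2 and 1 reads in control replicates 1, 2 and 3 and 6, 0 and 0 reads in overexpression replicates 1, 2 and 3. The counts of 0 in overexpression replicates 2 and 3 allow up to 0.0133 and 0.0153 FPKM at a floor of 3 reads, and the upper ends of their exact 95% Poisson intervals were 0.0164 and 0.0188 FPKM. Fibrillin RNA in these libraries was thus almost entirely that of Fbn1, and Fbn2 was below the level tested.

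Mfap5 encodes MAGP-2, a small glycoprotein that binds fibrillins and active TGF-beta family proteins (chromosome 6, 122505845 to 122529290, plus strand, ENSMUSG00000030116). Controls read 8.61, 8.17 and 7.17 FPKM, and overexpression gave 7.16, 9.72 and 8.56 FPKM, with the lowest and the highest library both in the overexpression group. The means of 7.98 ± 0.73 and 8.48 ± 1.29 FPKM (SD, n = 3) differed by a log2 fold change of 0.07 with a 95% interval of -0.20 to 0.34 (limma adjusted p = 0.900). The sign turned, to -0.02, without overexpression replicate 2. The related microfibril gene Mfap2, which encodes MAGP-1, was listed at 0 to 0.173 FPKM and was not tested.

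The 3 short fibulins had estimates on both sides of 0, and 0 of 3 passed. Fbln5, whose protein binds tropoelastin and cell surface integrins, was the tested member with the highest estimate (chromosome 12, 101746565 to 101819055, minus strand, ENSMUSG00000021186). Levels of 7.11, 7.65 and 9.01 FPKM in the controls compared with 10.1, 9.73 and 8.16 FPKM under overexpression. The highest library of the controls, replicate 3, exceeded overexpression replicate 3, and the other controls lay below every overexpression library. Mean FPKM rested at 7.92 ± 0.98 in control and 9.34 ± 1.04 with overexpression (SD, n = 3), which is 1.18 times the control. On the log2 scale the estimate was 0.21, its standard error 0.11 and its 95% interval -0.04 to 0.47 (limma adjusted p = 0.842).

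Efemp1, linked to an inherited macular dystrophy when mutated, stood at 553, 559 and 421 FPKM in the controls and 414, 484 and 495 FPKM under overexpression (chromosome 11, 28853204 to 28926743, plus strand, ENSMUSG00000020467). Control replicate 3 and overexpression replicate 1 were alike and lowest, and control replicates 1 and 2 were the highest pair. With 14275 to 24301 reads per library, the exact 95% Poisson interval was 414 to 427 FPKM in control replicate 3 and 552 to 566 FPKM in control replicate 2. Group means of 511 ± 78.0 and 464 ± 44.1 FPKM (SD, n = 3) gave an estimate of -0.13, with a 95% interval of -0.44 to 0.18 (limma adjusted p = 0.857). Dropping control replicate 3 took it to -0.26 (limma adjusted p = 0.287) and dropping overexpression replicate 1 to -0.05. Dropping control replicate 1 or 2 gave -0.07 or -0.06.

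Efemp2, whose product fibulin-4 is needed for lysyl oxidase to act on elastin, was the steadiest member (chromosome 19, 5473954 to 5482517, plus strand, ENSMUSG00000024909). It read 32.3, 32.5 and 31.2 FPKM in control and 30.9, 29.8 and 32.4 FPKM with overexpression, a spread of 1.09-fold from the lowest to the highest library. The groups overlapped, and the log2 fold change of -0.04 had a 95% interval of -0.18 to 0.09 (limma adjusted p = 0.885), the narrowest among the members. Its exons share 4.6% of their sequence with Mus81 on the opposite strand, which was listed at 6.21 to 7.13 FPKM.

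Fbln2 encodes fibulin-2, a long fibulin that binds fibronectin, fibrillin-1 and basement membrane proteins (chromosome 6, 91212455 to 91272540, plus strand, ENSMUSG00000064080). The controls stood at 69.9, 68.1 and 61.9 FPKM and the overexpression libraries at 52.4, 56.5 and 58.9 FPKM. All 3 overexpression libraries lay below all 3 controls, by a gap of 61.9 against 58.9 FPKM at the closest. The means were 66.6 ± 4.22 and 56.0 ± 3.28 FPKM (SD, n = 3), so that overexpression stood at 0.840 of control. The estimate of -0.25 (log2) had a standard error of 0.07, a 95% interval of -0.42 to -0.07 and an unadjusted p of 0.013 in limma. That p was 0.053 with control replicates 1 and 2 averaged and 0.056 without control replicate 1, and the 95% interval then includes 0. After adjustment over all genes Fbln2 did not pass (limma adjusted p = 0.842). The estimate lay between -0.31 and -0.20 under the 18 alternatives run, with limma adjusted p between 0.021 and 1.0.

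Emilin1 encodes an elastin microfibril interface protein that restrains TGF-beta processing (chromosome 5, 30913402 to 30921277, plus strand, ENSMUSG00000029163). Controls had values of 18.3, 18.6 and 14.1 FPKM, beside 12.4, 15.3 and 15.3 FPKM under overexpression. Control replicate 3 fell inside the overexpression range, so the groups overlapped although the other controls were higher than every overexpression library. Means of 17.0 ± 2.49 and 14.3 ± 1.68 FPKM (SD, n = 3) gave a log2 fold change of -0.23 with a standard error of 0.13 and a 95% interval of -0.52 to 0.07 (limma adjusted p = 0.842). Dropping control replicate 3 gave -0.35 (limma adjusted p = 0.260), and dropping overexpression replicate 1 gave -0.13. It was -0.17 or -0.16 without control replicate 1 or 2.

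**Figure D2:**
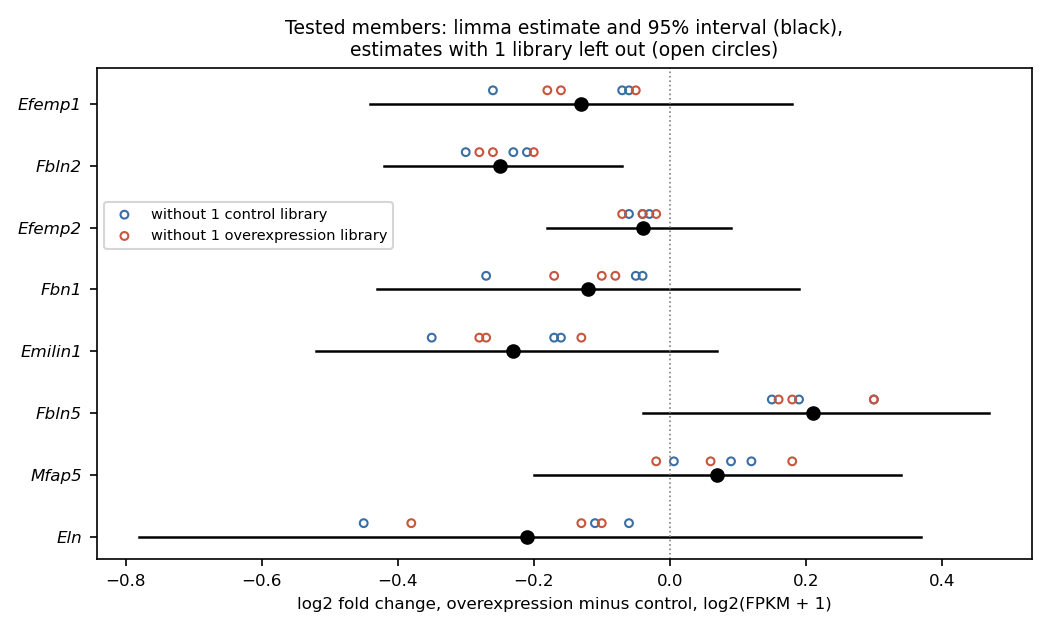
Log2 fold change of each tested member (horizontal axis, overexpression minus control, on the log2(FPKM + 1) scale), with the limma estimate and 95% interval in black and the estimates with 1 library left out as open circles (blue, a control left out; red, an overexpression library left out). The interval of Fbln2 alone, -0.42 to -0.07, lies on 1 side of 0, and the estimate of Eln moves most, from -0.45 to -0.06.

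Among the members, libraries of the same group could differ more than the groups did. The median member stood at 0.19 and 0.17 above its own mean in control replicates 1 and 2 on the log2(FPKM + 1) scale, at -0.15 in control replicate 3, and at -0.19, -0.01 and -0.04 in overexpression replicates 1, 2 and 3. Control replicate 3 was nearer to the overexpression mean than to the mean of the other controls in 7 of the 8 tested members, all but Mfap5, and in 64.8% of all genes tested. It fell within the range of the overexpression libraries in 5 of 8 members and in 51.7% of all genes tested. The level in control replicate 3 relative to the mean of the other controls was 0.474 for Eln, 0.721 for Fbn1, 0.757 for Efemp1 and 0.766 for Emilin1, 0.855 for Mfap5, 0.897 for Fbln2, 0.964 for Efemp2 and 1.22 for Fbln5. Fbln5 thus ran opposite to most members, with its lowest values in control replicates 1 and 2, where Eln, Fbn1, Efemp1, Fbln2 and Emilin1 were highest. The median absolute log2 difference over the tested members was 0.036 between control replicates 1 and 2, and 0.327 and 0.293 between each of them and control replicate 3. It was 0.115, 0.138 and 0.117 between control replicate 3 and overexpression replicates 1, 2 and 3. Over all genes tested these 3 pairs differed by 0.134, 0.109 and 0.107. Control replicate 3 differed from control replicates 1 and 2 by 0.139 and 0.138 over all genes tested.

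**Figure D3:**
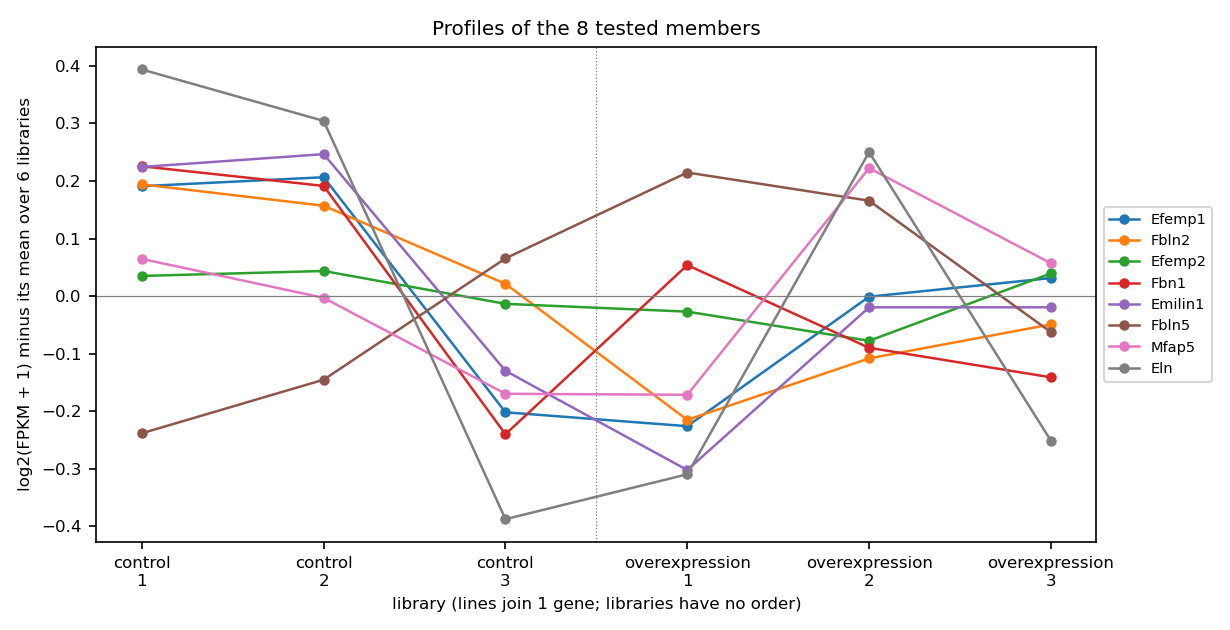
Profiles of the 8 tested members, drawn as log2(FPKM + 1) minus the mean of the gene over the 6 libraries (vertical axis) for each library (horizontal axis), with a line for each gene. Eln, Efemp1 and Emilin1 are high in control replicates 1 and 2 and low in control replicate 3 and overexpression replicate 1, whereas Fbln5 runs the other way and Efemp2 stays near 0.

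When libraries were weighted by their estimated quality, 4 of 8 members passed, and 18.3% of all genes tested passed as well. Fbln2 (-0.27, limma adjusted p = 0.021), Fbn1 (-0.27, limma adjusted p = 0.027) and Emilin1 (-0.25, limma adjusted p = 0.032) were lower and Fbln5 (0.32, limma adjusted p = 0.023) was higher with overexpression in that fit. The weights were 2.16, 2.57 and 0.236 for control replicates 1, 2 and 3 and 0.278, 4.64 and 0.593 for overexpression replicates 1, 2 and 3, highest in the near-identical control pair and overexpression replicate 2. With that pair averaged to 1 library, the weighted fit called 0 of 8 members (smallest limma adjusted p among them 0.916) and 0 of 12023 genes. That fit was added after seeing the data.

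Other genes of the elastic fibre pathway were taken from 8 lists with 67 symbols, of which 59 were listed and 36 tested. None was called in either direction, 3 of 36 had an unadjusted p below 0.05 and 5 of 36 had groups that did not overlap, beside 5.17% and 11.5% of all genes tested. The estimate was below 0 in 25 of 36, with a median log2 fold change of -0.04, beside 46.8% and 0.01 over all genes tested. For each list, the 2 genes with the smallest p are named below.

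Latent TGF-beta binding proteins resemble fibrillins and anchor latent TGF-beta to microfibrils. All 4 genes had estimates below 0, with a median of -0.21, and 0 of 4 passed. Ltbp3 held 43.2, 43.8 and 37.6 FPKM in control and 31.4, 35.1 and 36.3 FPKM with overexpression, so its groups did not overlap (log2 fold change -0.27, limma adjusted p = 0.842). Ltbp2 held 37.7, 39.8 and 33.2 FPKM in control and 23.8, 33.2 and 34.4 FPKM with overexpression, and the groups overlapped (-0.28, limma adjusted p = 0.842).

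Lysyl oxidases crosslink elastin and collagen. Of the 5 genes 4 were tested, 2 with estimates below 0 and 2 above and a median of -0.05, and 0 passed. Loxl3 held 41.0, 40.2 and 34.9 FPKM in control and 29.9, 30.9 and 33.9 FPKM with overexpression without overlap, and its log2 fold change of -0.28 did not pass (limma adjusted p = 0.842). Loxl4 held 6.75, 6.53 and 6.87 FPKM in control and 9.42, 7.41 and 6.75 FPKM with overexpression, for an estimate of 0.19 (limma adjusted p = 0.843). Lox itself, the most abundant of the family, was at 187 ± 25.4 and 191 ± 21.7 FPKM (SD, n = 3).

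Among proteases that degrade elastic fibres and their inhibitors 8 of 14 genes were tested and 0 passed, with 5 estimates below 0 and a median of -0.12. Timp1, a metalloproteinase inhibitor, held 59.0, 63.5 and 60.8 FPKM in control and 74.8, 70.2 and 64.9 FPKM with overexpression, all above the controls (0.19, limma adjusted p = 0.842). Timp3, a matrix-bound inhibitor, held 58.7, 58.3 and 41.8 FPKM in control and 29.2, 48.1 and 46.4 FPKM with overexpression, with control replicate 3 inside the overexpression range (-0.37, limma adjusted p = 0.843).

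Microfibril-related ADAMTS and ADAMTS-like genes had 4 of 4 tested estimates below 0 and a median of -0.09, led by Adamts10 (11.5 ± 1.17 against 9.64 ± 1.63 FPKM in control and overexpression) and Adamtsl5 (23.5 ± 2.64 against 21.8 ± 1.06 FPKM). Integrin subunits had 4 of 6 below 0 and a median of -0.02. The named genes were Itgb1, with an estimate above 0 (175 ± 3.11 against 183 ± 7.41 FPKM), and Itgb3, below 0 (9.34 ± 1.15 against 8.55 ± 1.04 FPKM). Other microfibril and elastic fibre associated genes had 3 of 5 below 0 and a median of -0.01, with Mmrn2 at 1.18 ± 0.13 and 1.37 ± 0.10 FPKM and Mfap1b, which can share reads with its near copy Mfap1a, at 3.93 ± 0.24 and 3.70 ± 0.21 FPKM. Furin and Pcsk7, the tested proprotein convertases, had estimates of -0.12 and 0.09. Of the growth factors held by microfibrils Tgfb3 and Gdf11 had estimates of -0.05 and 0.02. Each ± here is an SD of 3 libraries, and 0 of these genes passed (smallest limma adjusted p = 0.842).

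**Figure D4:**
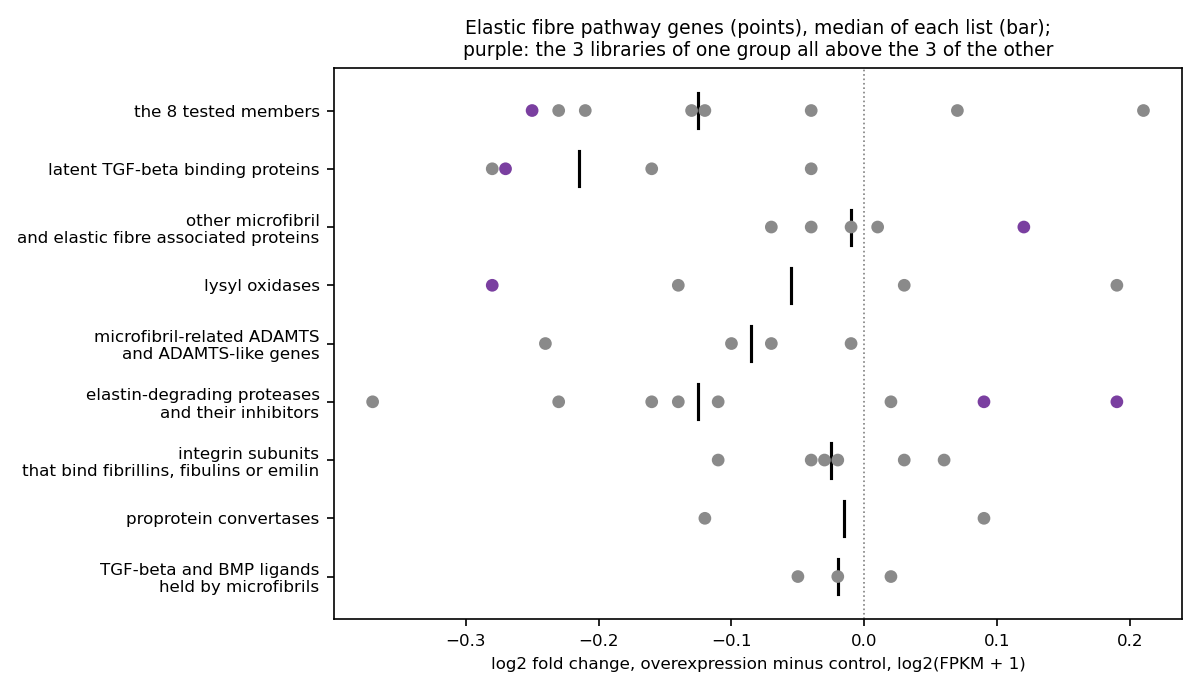
Log2 fold change of the 8 tested members and of the tested genes of 8 pathway lists (horizontal axis, overexpression minus control, on the log2(FPKM + 1) scale); each point is a gene, the bar is the median of its list, and purple points have groups that do not overlap. The latent TGF-beta binding proteins have the lowest median at -0.21, and no point passed the test.

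The profiles of the members with the widest range, Eln (0.78 from the lowest to the highest library in log2(FPKM + 1)) and Emilin1 (0.55), were compared with those of 12178 tested genes outside the lists. The measure was the root mean square difference between profiles centred on their means over 6 libraries. For Emilin1 the nearest were Col4a6, a basement membrane collagen chain, at 0.014, Tsc22d1 at 0.024 and Csrp1 at 0.027. Col4a6 held 35.5, 35.3 and 27.6 FPKM in control and 24.5, 29.5 and 29.4 FPKM with overexpression. For Eln the nearest were Gm1673 at 0.093, Ank, which encodes a transporter involved in pyrophosphate export, at 0.097 and Calml4 at 0.1. Ank held 259, 258 and 152 FPKM in control and 158, 223 and 195 FPKM with overexpression, again with control replicate 3 the lowest library. The libraries share their scaling, and control replicates 1 and 2 are close to a repeat of each other, so likeness over these 6 libraries is a description only.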

How the data were processed

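Expression was measured by RNA sequencing of DNase-treated RNA with the NEBNext Ultra kit, per the labels' protocols. Groups came from the genotype label of each sample. The deposited values are FPKM computed by the authors, per the file headers. The genome build was mm10, per the submitters' processing notes; for the aligner, the counting program, its strand setting and the annotation, nothing is given in the sources used here. Symbols, coordinates and exon lengths came from GENCODE M21, and 24816 of 24938 IDs had a symbol. Promoter sequences came from RefSeq (GRCm38.p6).

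Reads were recovered from the FPKM steps, within 0.01 reads, with the exon length of the annotation for 19830 genes (79.5%) and with the smallest length giving whole reads for 5076 genes, among them Fbln5, Efemp2 and Fbn2, where whole reads are no independent check. Recovered reads gave depths, counting intervals and 1 alternative.

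Values were tested as log2(FPKM + 1) in limma 3.58.1 (R 4.3.3), using a mean-variance trend, robust moderation and group as the only term, over the 12222 genes above 1 FPKM in at least 3 libraries. A gene was called below an adjusted p (Benjamini-Hochberg, over all of them) of 0.05. A pseudocount of 1 understates changes of low genes such as Eln. The test was checked on simulated data. The simulated libraries were independent, without a near-identical pair like that among the controls, so the check does not cover that feature. All members were named. Of each pathway list the 2 genes with the smallest p were named, and for the 2 members with the widest range the 3 nearest profiles. Lox, Mfap2 and the gene pairs compared by ratio were chosen after their values were seen. The members, lists and alternatives were chosen with earlier results of these data known. Alternatives were other pseudocounts, filters and scalings, a replicate block, leaving out or averaging libraries, library weights and limma-voom.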

Additional observations from a re-analysis of the deposited data

How the results depend on the processing

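Of 18 alternatives, 17 were planned and 1, library weights with control replicates 1 and 2 averaged, was added after seeing the data. The count of 0 called members held in 17, and library weights gave 4. The count of 0 called genes held in 14. It was 2241 with library weights and 1 without trend or robust moderation, and leaving out 1 library gave 0 to 2 (2 without control replicate 3, 1 without overexpression replicate 1). Genes at an unadjusted p below 0.05 numbered 632 and ran from 234 with control replicates 1 and 2 averaged to 4589 with library weights. The median of the members stayed below 0, between -0.27 and -0.04. It was -0.19 after rescaling to equal FPKM sums and -0.16 in limma-voom. Those sums were 353510 to 370542 in control and 373695 to 380910 with overexpression. Rescaling therefore lowered the overexpression libraries against the controls in genes of every kind. The -0.19 is thus not comparable with the median of 0.01 over all genes in the main fit. Of the estimates, 2 changed sign, Mfap5 to -0.02 without overexpression replicate 2 and Eln to 0.18 with weights and averaged controls; the cause was not tested. With the filter at 5 FPKM Eln was not tested. With the replicate number as a block, 0 members and 0 genes were called, with 444 genes at an unadjusted p below 0.05. The numbers give no sign of pairing, since deviations of libraries with the same number correlated at -0.102, 0.083 and 0.003 over genes. With 3 libraries a group and a near-identical pair among the controls, the 95% interval of Eln reached from -0.78 to 0.37.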
